A study of Mus musculus with 40 samples.

Results

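The genes described here are 8 subunits of neuronal nicotinic acetylcholine receptors: Chrna3, Chrna4, Chrna5, Chrna6, Chrna7, Chrnb2, Chrnb3 and Chrnb4. They were taken by symbol from the table of read counts, where all 8 were found among 23955 gene symbols. The counts came from hypothalamus mRNA of 40 untreated mouse strains in the basal state. They were 36 BXD lines, recombinant inbred lines whose founders are DBA/2J and C57BL/6J, the reciprocal hybrids B6D2F1 and D2B6F1, and the parental strains DBA/2J and C57BL/6J. Each strain had 1 library, and for a BXD line it held the pooled RNA of 3 to 6 hypothalami, so that animals of 1 strain cannot be compared with each other. The study's stated subject is Fgf15 of the hypothalamus and glucagon secretion, and age and sex are not given in the labels.

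Nicotinic receptors are pentameric cation channels opened by acetylcholine, built from alpha and beta subunits. In the brain the receptor of alpha4 and beta2 subunits is the common high-affinity form, and alpha7 forms homopentamers. Alpha6 and beta3 are known from dopamine neurons of the ventral midbrain, and alpha3, alpha5 and beta4 are encoded side by side and are known from autonomic ganglia and from the medial habenula and its target. In GENCODE vM21, Chrna5, Chrna3 and Chrnb4 were neighbours on chromosome 9 and Chrnb3 and Chrna6 were neighbours on chromosome 8, while Chrna4, Chrna7 and Chrnb2 were on chromosomes 2, 7 and 3.

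The promoter windows of the 3 clustered genes on chromosome 9 are shown because these neighbours had unequal spread between lines, wide for Chrna3 and narrower for Chrnb4. Each window runs from 250 bases before to 50 bases after the gene's start in RefSeq on GRCm38.p6, written 5′ to 3′ on the gene's strand, and capitals mark the motif GGGCGG or, on the other strand, CCGCCC. The windows were chr9:54981238-54981537 (+) for Chrna5, chr9:55026513-55026812 (-) for Chrna3 and chr9:55048495-55048794 (-) for Chrnb4.
Chrna5: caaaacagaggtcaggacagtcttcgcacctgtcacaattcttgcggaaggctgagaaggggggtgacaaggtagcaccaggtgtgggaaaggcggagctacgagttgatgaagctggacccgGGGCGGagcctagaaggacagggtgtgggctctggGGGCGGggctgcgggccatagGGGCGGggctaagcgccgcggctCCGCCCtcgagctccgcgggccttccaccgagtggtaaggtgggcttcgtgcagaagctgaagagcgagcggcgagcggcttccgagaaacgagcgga
Chrna3: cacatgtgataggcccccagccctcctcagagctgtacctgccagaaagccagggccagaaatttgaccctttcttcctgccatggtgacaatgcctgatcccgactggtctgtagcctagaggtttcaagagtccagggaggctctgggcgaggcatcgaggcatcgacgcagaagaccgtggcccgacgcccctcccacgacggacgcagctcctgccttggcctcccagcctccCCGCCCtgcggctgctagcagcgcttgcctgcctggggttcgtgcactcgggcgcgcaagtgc
Chrnb4: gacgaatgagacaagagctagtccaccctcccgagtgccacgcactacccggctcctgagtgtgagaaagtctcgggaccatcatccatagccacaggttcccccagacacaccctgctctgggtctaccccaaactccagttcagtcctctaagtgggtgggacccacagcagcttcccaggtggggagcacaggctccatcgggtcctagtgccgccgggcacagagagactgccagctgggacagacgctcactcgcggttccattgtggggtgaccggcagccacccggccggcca
The motif occurred 4 times in the Chrna5 window, 1 time in the Chrna3 window and 0 times in the Chrnb4 window, and 35.7% of 32851 promoter windows held it. GC content was 65.0% for Chrna5, 64.3% for Chrna3 and 63.0% for Chrnb4, against a median of 52.7% over all windows. Chrna5 had another RefSeq start with a window of 41.3% GC and no such motif. RefSeq windows were found for 6 of the 8 genes, Chrna6 and Chrnb3 being the others, and a match is a description of the letters only.

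The shallowest library had 12.2 M counts and the deepest 40.4 M, and the median was 23.6 M. Levels are given as CPM, read counts as parts per M of the library total after TMM scaling, a normalization for library composition. Some libraries stood apart from the other lines. BXD32 had 799 CPM of Ttr, a choroid plexus transcript, where the next line had 79.0 CPM. It also had 12.7 CPM of Tph2, the enzyme of neuronal serotonin synthesis, and 5.12 CPM of the transcription factor gene Pax2. Pou4f1, listed as a marker of both the medial habenula and the interpeduncular border, was at 4.06 CPM. The next lines had 0.975, 0.496 and 0.319 CPM of Tph2, Pax2 and Pou4f1. Irx2 of the interpeduncular list was at 10.3 CPM, where the next line had 3.18 CPM. Sncg of that list was also highest in BXD32, but Pax7, Foxa2 and Fgf13 were not. Of the other habenula markers Irx4 was highest in BXD32, but Gpr151, Tac2, Lrrc55, Wif1 and Tac1 were not. BXD71 had 75.3 CPM of Slc6a3, the dopamine transporter, where the next line had 46.0 CPM. The labels give hypothalamus as the tissue of all libraries, while the extraction protocol also speaks of brainstem samples. Hypothalamic neuropeptide genes were present in all libraries, with 34 to 163 CPM of Avp and 67.4 to 159 CPM of Pmch over the lines. BXD90 was highest in all 7 striatal markers, such as Ppp1r1b with 182 CPM over a median of 22.5 CPM.

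All 8 subunit transcripts were detected in every library, over a range of levels. Chrnb2 and Chrna4 were the most abundant and Chrna5 the least. Compared per length, as CPM per kilobase of exon (RPKM), the mean over the BXD lines was 15.2 ± 1.05 for Chrnb2, 10.5 ± 1.48 for Chrna4, 3.14 ± 0.224 for Chrna7, 1.40 ± 0.764 for Chrna6, 0.774 ± 0.453 for Chrna3, 0.386 ± 0.20 for Chrnb3, 0.330 ± 0.0843 for Chrnb4 and 0.175 ± 0.0905 for Chrna5 (SD, n = 36). The first 3 kept their order, and stayed above Chrna6, within each of the 40 libraries. Chrna6 was above Chrna3 in 34 libraries, Chrna3 above Chrnb3 in 32 and Chrnb4 above Chrna5 in 36. Chrnb3 was above Chrnb4 in only 22 of 40 libraries, and in 32 when the longest transcript was used for length in place of all exons, so that their order depended on the length used.

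**Figure D1:**
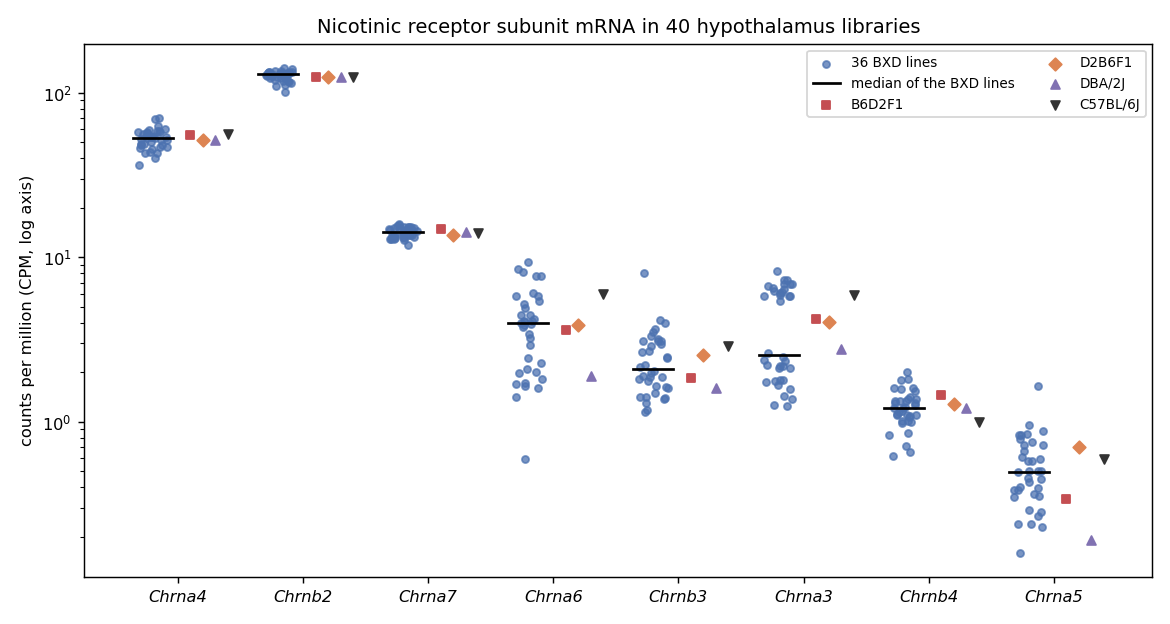
Level of each subunit transcript (CPM, log axis) in the 36 BXD lines (points, with the median as a bar) and, to their right, in B6D2F1, D2B6F1, DBA/2J and C57BL/6J. Chrna3 lies in a lower and an upper set of lines with none between 2.60 and 5.41 CPM, whereas Chrnb2 and Chrna7 span 1.40-fold and 1.35-fold.

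Of the 3 most abundant subunits, Chrnb2 and Chrna7 varied little between strains and Chrna4 varied more. Chrnb2, the beta subunit shared by most high-affinity receptors of the brain, ran from 101 CPM in BXD32 over a median of 130 CPM to 141 CPM in BXD67, and was 124 and 125 CPM in B6D2F1 and D2B6F1 and 124 CPM in both parents. Chrna7 ran from 11.8 CPM in BXD79 over 14.3 to 15.9 CPM in BXD73, and was 14.8 and 13.6 CPM in the hybrids, 14.2 CPM in DBA/2J and 14 CPM in C57BL/6J. The SD of log2 CPM over the lines was 0.10 for both, against 0.027 for Chrnb2 and 0.081 for Chrna7 from counting alone. Chrna7 therefore varied little more than its read number would give.

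Chrna4, the main partner of Chrnb2, ran from 36.2 CPM in BXD90 over 53.2 to 70.1 CPM in BXD71, and was 55.5 and 51.6 CPM in the hybrids, 52.0 CPM in DBA/2J and 56.3 CPM in C57BL/6J. The 4 other libraries lay inside the range of the lines. Its biological coefficient of variation, the spread that edgeR estimates beyond counting, was 13.6% and ranked 4250 of 14994 genes, while those of Chrnb2 (7.18%) and Chrna7 (6.83%) ranked 12146 and 12728.

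The other subunits ranged more widely. Chrna6 ran from 0.598 CPM in BXD32 over 3.96 to 9.31 CPM in BXD71, 15.6-fold, and its biological coefficient of variation of 53.8% ranked 110. Chrnb3 ran from 1.15 CPM in BXD87 over 2.09 to 8.06 CPM in BXD71, and its coefficient of 41.0% ranked 285. BXD71 was alone at the top of Chrnb3, as BXD96 followed at 4.16 CPM. Chrnb4 ran from 0.622 CPM in BXD81 over 1.21 to 2.00 CPM in BXD73, with an SD of log2 CPM of 0.36 against 0.27 from counting. Chrna5 had only 4 to 37 reads a line, 0.160 to 1.64 CPM, with an SD of log2 CPM of 0.59 against 0.41 from counting, and it was below the count filter of the 14994 genes ranked.

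Chrna3 had the highest coefficient of the 7 subunits that entered that estimate, 59.2%, which ranked 75 of 14994 genes. It ran from 1.26 CPM in BXD75 over a median of 2.55 to 8.29 CPM in BXD43, with 23 to 300 reads a line. The lines fell in a lower and an upper set: 19 lines had at most 2.60 CPM and 17 lines had at least 5.41 CPM, with no line in the 1.03 log2 units between them. Among 14443 genes, 39 (0.27%) had an empty interval this wide, 1 log2 unit or more with 6 or more lines to either side, and the other 7 subunits had steps of at most 0.26. BXD32 was the highest line below the step and BXD71 the next to highest above it.

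**Figure D2:**
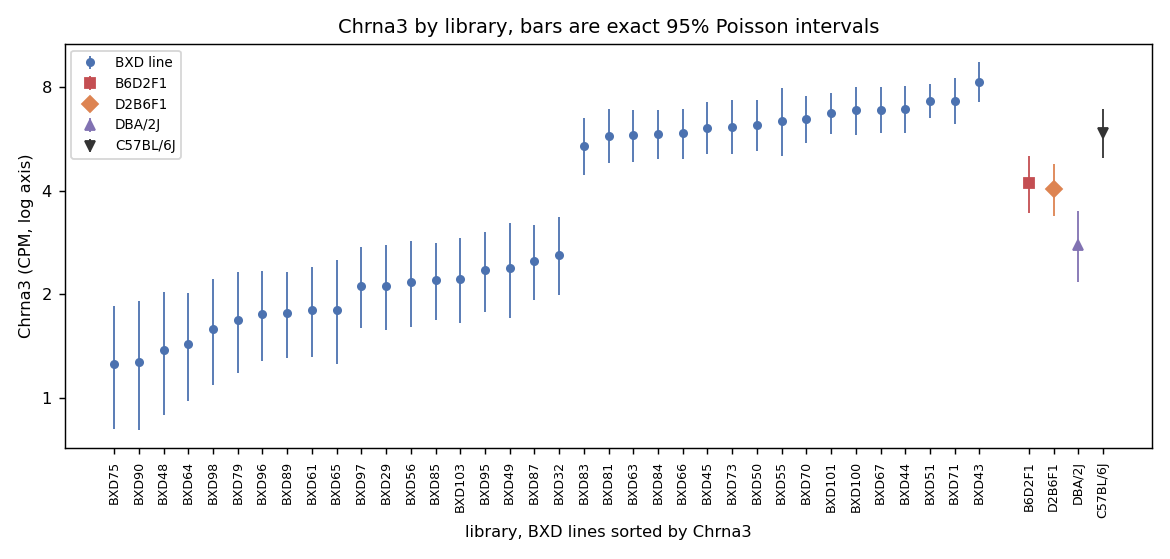
Chrna3 (CPM, log axis) in each library, with the BXD lines sorted by level and exact 95% Poisson intervals as bars, which cover counting error only. No BXD line lies between 2.60 and 5.41 CPM. Both F1 hybrids, at 4.20 and 4.04 CPM, and DBA/2J, at 2.77 CPM, lie in that interval, and C57BL/6J, at 5.88 CPM, lies above it.

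Of the widely ranging subunits all but Chrnb4 were lower in DBA/2J than in C57BL/6J, Chrna5 on few reads. There was 1 library a side and therefore no test. Chrna3 had 2.77 CPM in DBA/2J (73 reads) and 5.88 CPM in C57BL/6J (148 reads), a log2 difference of -1.09 with a counting SE of 0.21. B6D2F1 and D2B6F1, at 4.20 and 4.04 CPM, were between the parents. Chrna6 had 1.90 CPM in DBA/2J (50 reads) and 5.96 CPM in C57BL/6J (150 reads), a log2 difference of -1.65 with a counting SE of 0.24, and both hybrids were again between them at 3.64 and 3.89 CPM. Chrna3 and Chrna6 were the only subunits with a difference of at least 1 log2 unit and at least 5 CPM in either parent, a size that 0.649% of 12166 genes reached.

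Chrnb3 had 1.60 CPM in DBA/2J and 2.90 CPM in C57BL/6J, a log2 difference of -0.86 with a counting SE of 0.28, and the hybrids had 1.84 and 2.54 CPM. Chrna5 had 5 reads in DBA/2J and 15 in C57BL/6J, a log2 difference of -1.65 with a counting SE of 0.75. Chrna4, Chrna7, Chrnb2 and Chrnb4 differed by between -0.12 and 0.29 log2 units between the parents. Slc6a3 was also lower in DBA/2J, 6.68 CPM against 23.1 CPM in C57BL/6J, and its part in the differences of Chrna6 and Chrnb3 was not tested. Between the reciprocal hybrids no subunit reached 0.5 log2 units with at least 5 CPM, which 0.833% of 12126 genes did. The largest difference was that of Chrna5, with 9 reads in B6D2F1 and 23 in D2B6F1, at -1.06 log2 units with a counting SE of 0.57. Chrnb3, at 1.84 CPM in B6D2F1 and 2.54 CPM in D2B6F1, differed by -0.47 with a counting SE of 0.26.

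As a group, the BXD lines did not differ from the 4 other libraries in any subunit at an adjusted p under 0.05. Log2 differences, BXD lines over parental and F1 libraries, were between -0.04 and 0.25. edgeR called 0% of 16198 genes in this contrast, with 163 genes (1.01%) at an unadjusted p under 0.05, and DESeq2 called 0 with 206. Chrna3 averaged 4.07 ± 2.39 CPM in the BXD lines and 4.22 ± 1.28 CPM in the other libraries (SD, n = 36 and 4), a log2 difference of -0.04 with a 95% interval from -0.90 to 0.82. The F1 hybrids over the 38 inbred libraries gave log2 differences between -0.16 and 0.16, with 0% of 16434 genes called by edgeR, 109 (0.663%) at an unadjusted p under 0.05, and 0 called by DESeq2 with 133. With 2 hybrid libraries the 95% interval of Chrna6, at -0.10, reached from -1.21 to 1.00.

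For each subunit, the log2 level was then used as a covariate over the 36 lines, which asks which transcripts followed it from line to line. A slope is the change in log2 expression of a gene per log2 unit of the subunit, from edgeR's quasi-likelihood fit with p-values adjusted over all genes tested. With 1 library a line, genotype and dissection cannot be told apart, and in bulk tissue fewer cells of a type and less RNA per cell cannot be told apart. Of 56 ordered pairs of subunits 4 were called, namely Chrna6 with Chrnb3 and Chrna4 with Chrnb2, each in both directions. The share of all genes called was 0.0867% with Chrna6, 0.0372% with Chrnb3, 0.746% with Chrna4 and 23.1% with Chrnb2, so that 1 of 7 subunits called with Chrnb2 was no more than its background.

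**Figure D3:**
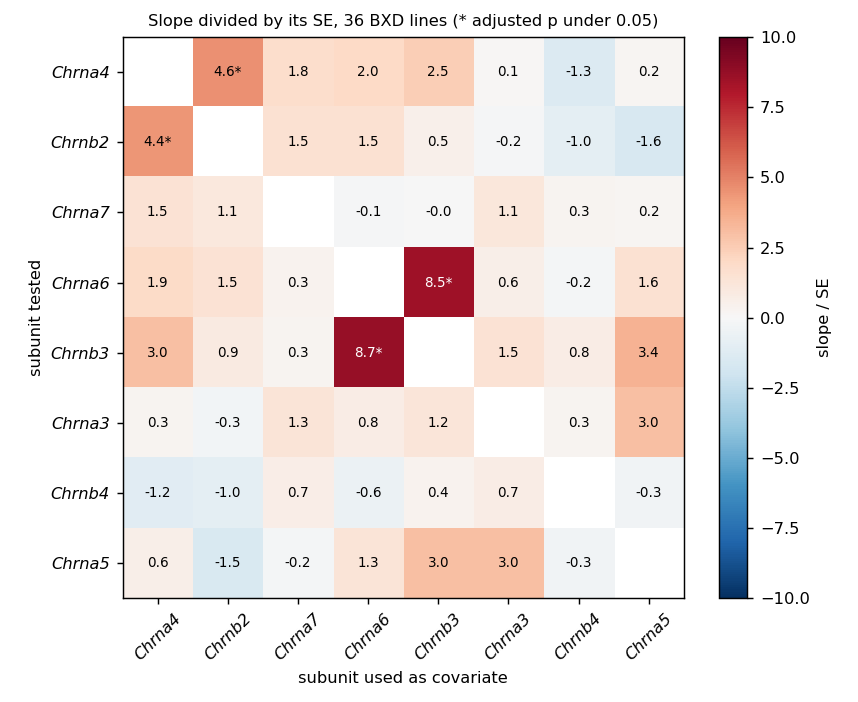
Slope of each subunit (vertical) on each other subunit (horizontal) over the 36 BXD lines, divided by its SE, with an asterisk where edgeR's adjusted p was under 0.05. The asterisks stand only at Chrna6 with Chrnb3 and at Chrna4 with Chrnb2.

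Chrna6 and Chrnb3, the subunits of dopamine neuron receptors, rose and fell together and with the dopamine transporter. With Chrna6 as covariate 14 of 16145 genes were called, 0.0867%. The strongest were Slc6a3, with a slope of 0.90 ± 0.10 (SE, adjusted p = 5.5e-07), and Chrnb3, with 0.62 ± 0.07 (adjusted p = 8.9e-07). Th, tyrosine hydroxylase, followed with 0.23 ± 0.05 (adjusted p = 0.018). With Chrnb3 as covariate 6 of 16145 genes were called, 0.0372%, again led by Slc6a3 with 1.24 ± 0.11 (adjusted p = 2.4e-09), then Chrna6 with 1.13 ± 0.13 (adjusted p = 2.3e-06) and En1, a homeobox gene of midbrain dopamine neurons, with 1.07 ± 0.19 (adjusted p = 0.012).

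Over the lines, Pearson's r of log2 Chrna6 and Chrnb3 was 0.81 and Spearman's rho 0.83, both with a permutation p of 1e-05, the smallest that 100000 permutations can give. Leaving out BXD32 and BXD95, the lines farthest from the median of Chrna6, gave r = 0.83. This was 1 of 21 pairs of subunits for which r was computed over all lines. The relation held without BXD71, with a slope of Chrnb3 on Chrna6 of 0.53 (adjusted p = 6.5e-06), and without BXD32, with 0.71 (adjusted p = 2.8e-07).

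Of the midbrain dopamine neuron markers, Slc6a3 and Th were called with Chrna6 and Slc6a3 and En1 with Chrnb3. All 8 listed markers were found, 7 passed the filter on low counts, and all 7 had positive slopes in both fits. Th was not called without BXD32 (0.21, adjusted p = 0.43) or without BXD71 (0.19, adjusted p = 0.085), and En1 not without BXD71 (0.92, adjusted p = 0.96), whereas Slc6a3 was called in each of these fits. Their median slope was 0.22 on Chrna6 and 0.30 on Chrnb3, against 0.00065 and 0.00055 over all genes tested. The same 7 markers also had positive slopes on Chrna3 and on Chrnb4, with none called, so the shared sign was not particular to Chrna6 and Chrnb3. Other lists had slopes of one sign too, with none called: 6 of 6 meningeal markers on Chrnb3 (median 0.33), 8 of 8 thalamic (0.14) and 8 of 8 supramammillary markers (0.11) on Chrnb3, and 7 of 7 striatal markers on Chrna6 (0.16) were positive. So were 7 of 7 hypothalamic markers on Chrna6 (0.094) and 6 of 6 microglial markers on Chrna6 (0.063) and on Chrnb3 (0.060). All 6 pituitary markers were negative on Chrna6 (-0.14) and on Chrnb3 (-0.16), and all 6 choroid plexus markers on Chrna6 (-0.16). Slc6a3 ran from 3.54 CPM in BXD32 over 16.3 to 75.3 CPM in BXD71, and was 13.2 CPM in each hybrid, 6.68 CPM in DBA/2J and 23.1 CPM in C57BL/6J. The summed level of the list ran from 185 to 420 CPM over the lines and from 179 to 242 CPM in the 4 other libraries. Of its defining markers Pitx3 was at 0 reads in 6 libraries and Slc6a3 and En1 in none. The hypothalamus has dopamine neurons of its own, which also express Th. Of the 6 markers listed for them 4 had positive slopes in both fits (medians 0.046 on Chrna6 and 0.11 on Chrnb3), with Th called on Chrna6 and none on Chrnb3. The part of either cell type in these relations was not tested.

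With log2 Slc6a3 as a second covariate, chosen after seeing the data, the relation between the 2 subunits was no longer called. The slope of Chrnb3 on Chrna6 was 0.20 ± 0.11 (adjusted p = 0.98) and that of Chrna6 on Chrnb3 was 0.52 ± 0.25 (adjusted p = 0.41). No gene was called with Chrnb3 in this fit.

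The genes that followed Chrna6 at a given level of Slc6a3 were its neighbours on chromosome 8. In that fit 15 of 16144 genes were called, 0.0929%, and all 15 were on chromosome 8, where 5.16% of the tested genes lie. They spread from 25 tested genes before Chrna6 to 46 after it. The strongest were Fut10, a member of the fucosyltransferase family, with a slope of 1.74 ± 0.13 (adjusted p = 2.6e-11), Rnf122, a RING finger gene, with 0.77 ± 0.07 (adjusted p = 3.3e-09), Prosc, which encodes a pyridoxal phosphate binding protein, with 0.31 ± 0.03 (adjusted p = 7.5e-09), Got1l1 with 1.93 ± 0.20 (adjusted p = 3.9e-08) and Adrb3, the beta3 adrenergic receptor, with 1.44 ± 0.15 (adjusted p = 6.8e-08). Of the 15 genes 14 rose with Chrna6 and 1, Gm3985, fell. Chrnb3, the gene next to Chrna6, was not among them.

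Without Slc6a3 in the fit only 4 of the 14 called genes were on chromosome 8: Chrnb3, Dusp26, Rnf122 and Fut10. When BXD32 was left out as well as Slc6a3 added, 17 genes were called, 0.105% of 16131, and all 17 were again on chromosome 8. The fit on Chrna6 alone was sensitive to BXD32: without that line 2 genes were called (0.0126%), Slc6a3 and Chrnb3. Tph2 (-0.94) and Pax2 (-0.98) had negative slopes, and both transcripts were highest and Chrna6 lowest in that line. Without it the slope of Tph2 was 0.061, and Pax2 did not pass the filter on low counts.

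**Figure D4:**
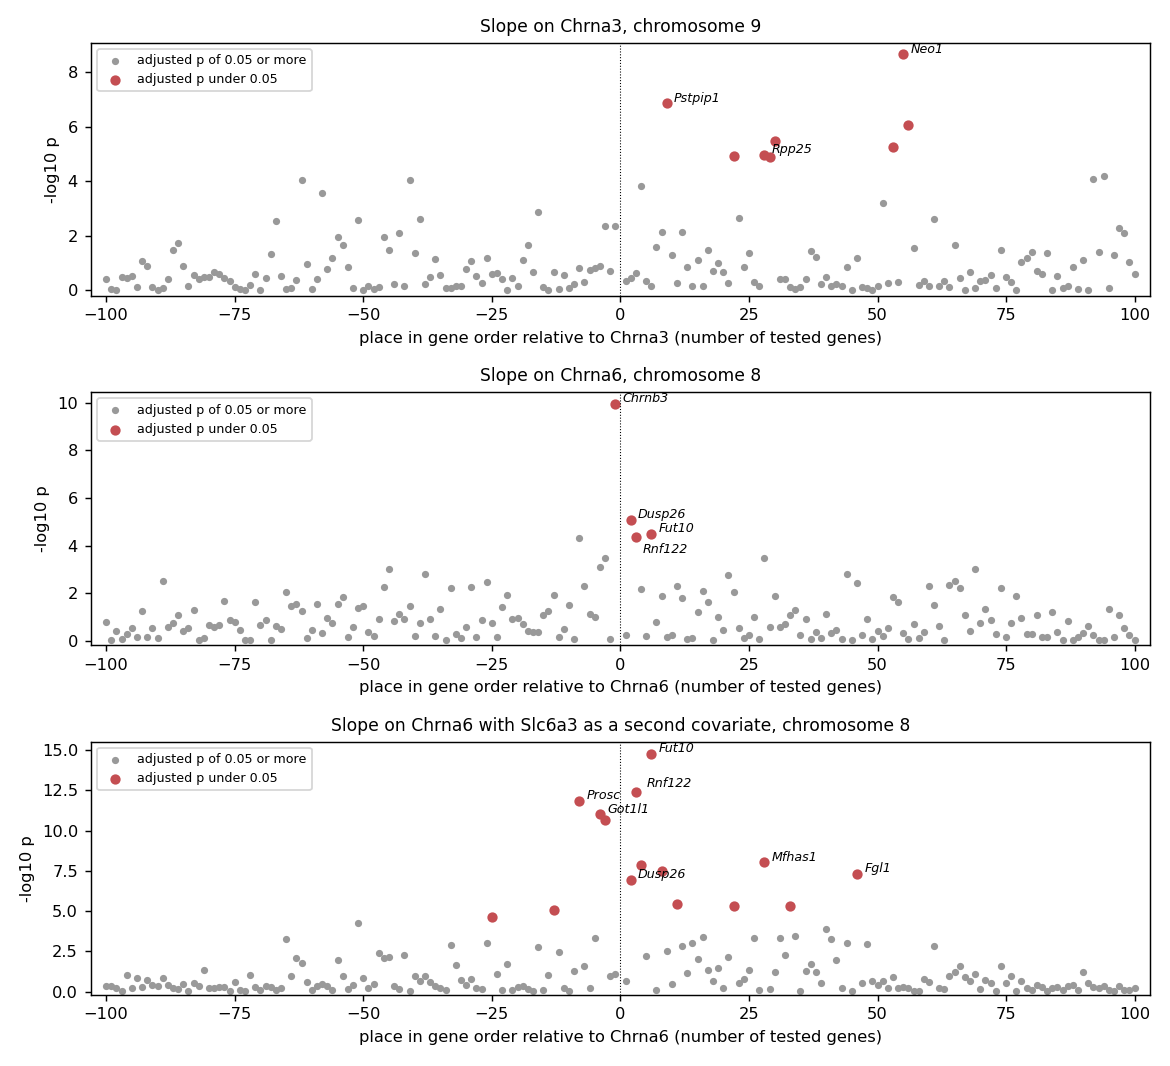
Minus log10 of edgeR's p for the slope on Chrna3 (top) and on Chrna6 without (middle) and with (bottom) Slc6a3 as a second covariate, by place in the order of tested genes on the subunit's chromosome, within 100 genes. Red points have an adjusted p under 0.05, and 8, 4 and 15 of them stand in the 3 panels.

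Fut10 itself had a step of 1.01 log2 units over the lines, with 17 lines at 2.44 to 4.32 CPM and 19 lines at 8.80 to 13.7 CPM. It was 6.97 and 6.80 CPM in B6D2F1 and D2B6F1, 4.67 CPM in DBA/2J and 10.3 CPM in C57BL/6J. When Chrna6 was expressed relative to the level its regression on Slc6a3 gives, the 17 lines with the lowest relative Chrna6 were the same 17 lines that were below the Fut10 step, at -0.79 to -0.05 log2 units, and the other 19 were at -0.04 to 0.61. The SD of log2 Chrna6 was 0.85 over the lines and 0.46 relative to Slc6a3. BXD71, highest in Chrna6, and BXD32, lowest in it, were both among those 17 lines. Fut10 was picked as the strongest follower of Chrna6 in that fit, so this restates the fit and tests nothing. The split was close, with BXD44 and BXD43 at -0.05 and -0.04 on either side of it and a counting SD of 0.15. The count was made after seeing the values, and the lines on each side were not compared as groups.

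**Figure D5:**
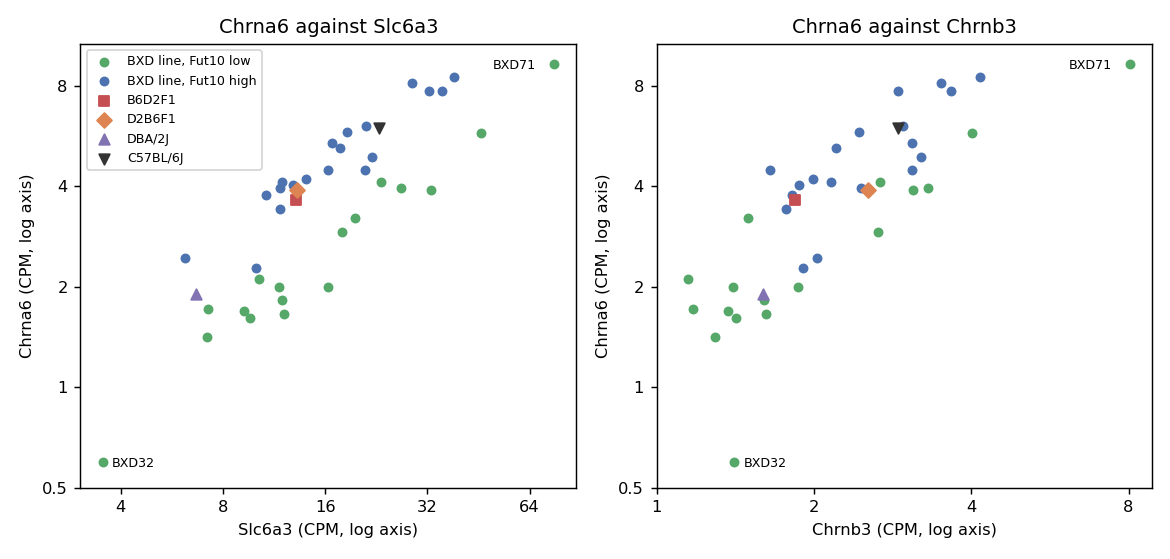
Chrna6 against Slc6a3 (left) and against Chrnb3 (right), in CPM on log axes, with the BXD lines below and above the step of Fut10 in different colours and the 4 other libraries as separate symbols. Relative to the regression on Slc6a3 the 17 lines low in Fut10 lie at -0.79 to -0.05 and the 19 lines high in it at -0.04 to 0.61 log2 units.

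S100a8 and S100a9, calcium-binding proteins of neutrophils, were called with both subunits, and 1 line carried most of their reads. BXD96 had 14.3 CPM of S100a8 and 20.4 CPM of S100a9, where the next line, BXD71, had 1.02 and 1.68 CPM. Ret, the receptor of glial cell line derived neurotrophic factor, was called with Chrnb3 at 0.19 ± 0.04 (adjusted p = 0.022). Without BXD71 the fit on Chrnb3 called 3 genes, Slc6a3, Chrna6 and Top2a, and neither En1 (slope 0.92, adjusted p = 0.96) nor Ret (slope 0.14, adjusted p = 0.97) was among them.

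The genes that followed Chrna3 were all on its own chromosome, and no listed marker or pathway gene was among them. With Chrna3 as covariate 8 of 15738 genes were called, 0.0508%, and all 8 were on chromosome 9, where 5.70% of the tested genes lie. All 8 stood on the same side of Chrna3, from 9 to 56 tested genes away, and 4 rose and 4 fell with it. Those that rose were Pstpip1, a cytoskeletal adaptor (0.35 ± 0.06, adjusted p = 0.0011), Adpgk, an ADP-dependent glucokinase (0.13 ± 0.02), Fam219b (0.12 ± 0.02) and Rpp25, a subunit of RNase P (0.25 ± 0.05). Those that fell were Neo1, the netrin receptor neogenin (-0.23 ± 0.03, adjusted p = 3.6e-05), 2410076I21Rik (-0.33 ± 0.06), Cox5a, a subunit of cytochrome c oxidase (-0.12 ± 0.02), and Man2c1, an alpha-mannosidase (-0.09 ± 0.02). The step in Chrna3 parts the lines, so no pooled correlation is given.

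The direct neighbours of Chrna3 were not called with it. Chrna5 had a slope of 0.34 ± 0.11 (p = 0.0043 before and 0.67 after adjustment by edgeR's Benjamini-Hochberg step) and Chrnb4 had 0.05 ± 0.07 (adjusted p = 0.96). In RefSeq, Chrna3 and Chrna5 overlap by 1304 bases on opposite strands, and in GENCODE vM21 by 0. The libraries were stranded per the labels, but the strand setting of the counting is not given in the sources used here, so that reads of one gene counted for the other cannot be told apart. The 4 called genes with the lowest adjusted p, Neo1, Pstpip1, Adpgk and Fam219b, stayed called in all alternatives tried.

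The founders differed in some of these genes. Neo1, which fell with Chrna3, was 245 CPM in DBA/2J and 206 CPM in C57BL/6J, with 225 and 214 CPM in the hybrids. Rpp25, which rose with it, was 7.33 CPM in DBA/2J and 9.98 CPM in C57BL/6J. Pstpip1 was 1.33 CPM in DBA/2J and 1.39 CPM in C57BL/6J. Of the medial habenula markers, 7 of 8 were found, 5 passed the filter, 3 of these had positive slopes on Chrna3 and 0 were called. Their median slope was 0.0070, against -0.00086 over all genes, their summed level ran from 125 to 192 CPM over the lines, and of the defining markers Pou4f1 was at 0 reads in 5 libraries and Gpr151 in none. Other lists had slopes of one sign on Chrna3, with none called. All tested supramammillary, hypothalamic, midbrain dopamine neuron and interpeduncular markers were positive. All tested striatal, meningeal and oligodendrocyte markers were negative.

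Chrna4 and Chrnb2, the subunits of the high-affinity receptor, had positive slopes on each other that were called. The slope of Chrnb2 on Chrna4 was 0.29 ± 0.07 (adjusted p = 0.028) and that of Chrna4 on Chrnb2 was 1.19 ± 0.26 (adjusted p = 0.0015), in a fit that called 23.1% of all genes. Pearson's r was 0.62 (permutation p = 6e-05) and Spearman's rho 0.69 (permutation p = 1e-05), with r = 0.60 without BXD90 and BXD85, the lines farthest from the median of Chrna4. Both slopes stayed called in every alternative tried.

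With Chrna4 as covariate 120 of 16081 genes were called, 0.746%, against 328 without BXD90 and BXD85 and 228 with DESeq2. Lynx1, a prototoxin that binds nicotinic receptors and lowers their response, rose with a slope of 0.44 ± 0.08 (adjusted p = 0.0038), and Hrh2, the histamine H2 receptor, rose with 0.78 ± 0.13 (adjusted p = 0.0028). Ccdc136 (0.60 ± 0.08), the copine gene Cpne7 (0.65 ± 0.10) and Wnt9b, a Wnt ligand (2.17 ± 0.35), were also called, while Arf4, a small GTPase of vesicle transport, fell (-0.28 ± 0.05). Chrna10, of the other 8 nicotinic subunits, was called at 2.18 ± 0.56 (adjusted p = 0.048), at a level of 0.0829 to 0.727 CPM, but not without BXD32 (adjusted p = 0.063). None of the 8 genes of acetylcholine synthesis, transport and breakdown and none of the 5 muscarinic receptors was called, and Lynx1 was the only one of 12 tested chaperones and prototoxins.

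Of 8 thalamic markers 4 were called with Chrna4, and all 8 had positive slopes. Those called were the transcription factor Tcf7l2 (1.37 ± 0.32), the kinase Prkcd (2.28 ± 0.43), the netrin G1 gene Ntng1 (0.67 ± 0.17) and Plekhg1 (1.03 ± 0.23). The median slope of the list was 0.65, against -0.016 over all genes tested. Its summed level ran from 583 to 1029 CPM over the lines and from 783 to 874 CPM in the 4 other libraries, and none of its defining markers was at 0. Without BXD90 and BXD85, 7 of the 8 slopes were positive and Prkcd alone was called (2.39, adjusted p = 0.011), while the other 3 had adjusted p from 0.052 to 0.080. The 7 striatal markers had 6 negative slopes, a median of -1.17 and none called. Without BXD90 and BXD85, of which BXD90 was lowest in Chrna4 and highest in all 7, 6 of these slopes were positive with a median of 0.18. The pituitary hormones Gh and Prl fell with Chrna4, each called, and Prl was at 0 reads in 18 libraries and Gh in 9. Their highest levels, 24.5 CPM of Gh and 5.14 CPM of Prl, were both in BXD85. With BXD90 and BXD85 left out, Gh stayed called (-7.06, edgeR's adjusted p = 0.037) and Prl did not pass the filter on low counts. The part of dissection in these slopes was not tested.

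Chrnb2 was followed by a large share of the transcriptome. With Chrnb2 as covariate 3734 of 16145 genes were called, 23.1%. They were led by Rims3 (1.65 ± 0.17), Syngr1 (0.99 ± 0.11), Clstn3 (1.00 ± 0.12) and Sv2a (0.85 ± 0.11), of which Syngr1 and Sv2a are synaptic vesicle genes. Against that background Lynx1 rose (0.77 ± 0.17), Ache, acetylcholinesterase, rose (0.89 ± 0.23), and Bche, butyrylcholinesterase, Colq, the collagen tail of acetylcholinesterase, and the ubiquilin gene Ubqln1 fell (-1.50 ± 0.31, -3.21 ± 0.89 and -0.45 ± 0.10). Of the 6 choroid plexus markers Ttr, Kl and Kcnj13 fell as well. Lynx1 and Ubqln1 were the only ones called of 12 tested chaperones and prototoxins. Ache, Bche and Colq were the only ones of 8 genes of acetylcholine synthesis, transport and breakdown, and no muscarinic receptor was called. With 23.1% of all genes called, these calls are not read as a result about the lists. BXD32, lowest in Chrnb2, was highest in Ttr, Kl, Kcnj13, Bche, Colq and Ubqln1. Without BXD32, Bche (-1.28, adjusted p = 0.046) and Lynx1 (1.11, adjusted p = 0.0010) stayed called. Ache (0.74), Ubqln1 (-0.31), Ttr (-8.68), Kl (-0.83), Kcnj13 (-5.01) and Colq (0.26, the sign turned) were not called without it, with adjusted p from 0.088 to 0.91. Without BXD32 the fit called 937 genes, of which 816 were among the 3734, and Chrna4 stayed called with a slope of 1.43 (adjusted p = 0.0076).

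Chrna7, Chrna5 and Chrnb4 had 0% of genes called in edgeR's fits over all 36 lines with the filter on low counts, where 10.8%, 3.43% and 6.12% of genes had an unadjusted p under 0.05 (1733, 551 and 979 genes). DESeq2 called 17 genes with Chrna7, 2 with Chrna5 and 3 with Chrnb4. In edgeR, 10 genes were called with Chrna7 without BXD71, and 26 with Chrnb4 and 1 with Chrna5 when no filter was used. The transcripts closest to Chrna7 by Pearson's r over the lines were Pcdhac2 and the transcription factor gene Foxo3 (r = 0.67 for both), with an adjusted p of 0.054 for each slope. The transcript closest to Chrnb4 was Lnx2 (r = 0.62), and those closest to Chrna5 were Nxpe4 and Nt5dc1 (r = 0.56 and 0.55). Chrna5 rose with Chrnb3 before adjustment only (slope 0.48 ± 0.16, p = 0.0043 and adjusted p = 0.99 by edgeR). BXD71 was the highest line in both transcripts. Pearson's r of the pair was 0.40 over the lines and 0.15 without BXD71 and BXD61, the lines farthest from the median of Chrna5.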

How the data were processed

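Hypothalamus mRNA was sequenced as stranded TruSeq libraries with 100-base single-end reads, per the labels' protocols. TopHat2 2.0.8, HTSeq 0.5.4p3, DESeq and the mm9 assembly are named in the submitters' processing notes, with no parameters or annotation. The authors deposited read counts per gene symbol, which every test used, and a signal table of counts divided by a size factor per library, which was used for alternatives only. Dividing the signal table by what 1 read is worth in each library gave whole reads (tolerance 0.01) for 100% of values, and 217 of 320 subunit values equalled the raw counts. Over the 15249 genes that both hold, 36.5% of values equalled the raw counts.

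Counts were scaled by TMM, and a prior count of 2 was added before taking log2 CPM. Genes were kept by filterByExpr and tested with edgeR 4.0.16 (quasi-likelihood, robust) in R 4.3.3 at a Benjamini-Hochberg adjusted p of 0.05 over all genes tested. The design column of each slope fit was 1 subunit over the 36 lines. DESeq2 1.42.0, its size factors in edgeR, no filter, the recovered counts, a depth covariate, a prior count of 0.5 and left-out libraries were alternatives. Fits without BXD71, without BXD32 and with Slc6a3 were added after seeing the data. Scripts were tested on simulated data. Poisson intervals cover counting error only, and since PCR copies were not marked reads are not independent molecules. P-values measure the spread between single libraries of strains.

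Genes were named if they were subunits, among the 10 called genes with the lowest adjusted p per fit, called members or defining markers of the lists, nearest neighbours, or the 5 most and 3 least correlated with a subunit, of which the leading are printed. Other genes named in fits with Slc6a3, and Fut10's step, were chosen after their values were seen. The subunits and lists were chosen with earlier results of these data known. Gene order came from GENCODE vM21, in which 23510 of 23955 symbols were placed, on another build than mm9, and it gives no coordinates here. Lengths are exon unions.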

Additional observations from a re-analysis of the deposited data

Results flagged for a closer look

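Chrnb2 was marked because 1 of the 4 parental and F1 libraries, D2B6F1, lay far from the other 3 relative to their range: its gap to the nearest was 0.839 of the range, above Dixon's critical value for 4 samples. The levels were 124, 125, 124 and 124 CPM in B6D2F1, D2B6F1, DBA/2J and C57BL/6J, so the range itself was small. Chance gives such a mark in about 1 of 20 groups.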

How the results depend on the processing

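Slopes between Chrna4 and Chrnb2 stayed called in all alternatives, and those between Chrna6 and Chrnb3 in all but the fits with Slc6a3. Of the other alternatives, 533 values and 73 counts kept direction and side of the threshold and 46 values lost the call only. Against these, 25 values reversed direction and 29 counts moved. DESeq2 called 16 genes with Chrna3, 228 with Chrna4, 2 with Chrna5, 66 with Chrna6, 17 with Chrna7, 10 with Chrnb3 and 3 with Chrnb4. No filter on low counts gave 1 with Chrna5, 96 with Chrna6, 1 with Chrna7, 14 with Chrnb3 and 26 with Chrnb4. The recovered counts gave 8 with Chrna6 and 8 with Chrna7, DESeq2's size factors 7 with Chrna7, and a log2 total covariate 28 with Chrna6. Without the 2 lines farthest from the median the counts were 328 for Chrna4, 2 for Chrna6, 2 for Chrna7, 1436 for Chrnb2 and 2 for Chrnb3. Without BXD32 they were 2 for Chrna6 and 937 for Chrnb2, and 1 for the F1 contrast. Without BXD71 they were 10 for Chrna7 and 3 for Chrnb3. With Slc6a3, with or without BXD32, Chrnb3 had 0. The fits without BXD71, without BXD32 and with Slc6a3 were chosen after seeing the data. The slope of Tph2 on Chrna6 was 0.081 without the 2 farthest lines and 0.061 without BXD32, and that of Th was -0.0091 with Slc6a3 and -0.032 with Slc6a3 and without BXD32. The cause of these changes was not tested.

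None of the subunit differences in the 2 contrasts was called, and several changed sign. With the total as covariate, BXD lines over the others gave 0.066 for Chrna3, -0.076 for Chrna6 and -0.021 for Chrna7, and with no filter -0.00083 for Chrna7. Leaving out each parental or F1 library gave -0.20 to 0.15 for Chrna3, -0.0021 to 0.55 for Chrna5, -0.14 to 0.36 for Chrna6, -0.017 to 0.026 for Chrna7 and -0.10 to 0.076 for Chrnb4. For F1 hybrids over inbred strains, leaving out either F1 left a lone hybrid library, assumed to vary like the others. It gave 0 to 1 genes called, and -0.018 to 0.034 for Chrna3, -0.030 to 0.073 for Chrna4, -0.67 to 0.38 for Chrna5, -0.056 to 0.065 for Chrna7 and -0.41 to 0.058 for Chrnb3. The total covariate gave -0.14 for Chrna3 and 0.10 for Chrna6, the recovered counts 0.013 for Chrna5, leaving out BXD32 -0.0090 for Chrna3 and leaving out BXD71 0.053 for Chrna5. No paired analysis was possible because strains are single libraries with no matching between them. Depth limits Chrna5, with 4 to 37 reads a line, and Chrnb4, with 10 to 42.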
